A study of Mus musculus with 28 samples.

Results

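Epidermal stem cells from mouse skin that had been inflamed with imiquimod and left to recover for 30 days were compared with the same cells from skin given a control cream. Of the 28 samples of the series, 4 belong to this comparison. They are the RNA-seq libraries whose titles name day 30, unwounded epidermal stem cells and either imiquimod (2 libraries) or control (2 libraries). All 4 came from C57BL/6 mice labelled female, which were at postnatal day 60 when treatment began. The control group had Vanicream, an emollient, and the other group topical imiquimod, an agonist of Toll-like receptor 7 that provokes psoriasis-like inflammation. Both creams were given over 6 days, and skin was taken 30 days later, with no wound and no engineered allele named. In both groups the cells were sorted as positive for integrin A6, integrin B1 and Sca1 and negative for CD34. The series also holds matched libraries at day 6 (4) and at 6 h and 12 h after wounding on day 30 (8 in all). They share the fit that estimates the spread for the day 30 test, and they are used below to place the day 30 genes. The 12 ATAC-seq samples were not analysed here.

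Stem cells of the interfollicular epidermis sit on the basement membrane, divide to renew the tissue, and send daughters upward to become the barrier. That barrier consists of keratins, cornified proteins and extracellular lipid, of which cholesterol, ceramides and free fatty acids are the main classes, so keratinocytes are active makers of sterols. Epidermal stem cells are also known to keep a memory of past inflammation, in which Aim2, which detects cytosolic DNA, and Casp1, the protease that matures interleukin-1β and interleukin-18, have been described as components. The comparison at day 30 asks which transcripts still differed after the inflammation had passed and before any new challenge.

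The 4 libraries held 23623968 to 36218864 counts. Krt5 and Krt14, the keratins of basal cells, were abundant, at 19421 to 33454 and 14628 to 29889 CPM (reads of a gene as a share of all reads, per library, with TMM scaling between libraries). The transcripts of the sort markers integrin A6 (Itga6, 1222 to 2306 CPM), integrin B1 (Itgb1, 264 to 592 CPM) and Sca1 (Ly6a, 200 to 366 CPM) were present, and Cd34 was low (0.207 to 1.95 CPM). Krt10, a keratin of cells that have left the basal layer, stood at 8226 to 17793 CPM, so transcripts of differentiating cells were present too. Both libraries numbered 1 went against their sex label. They held 0 and 1 reads of Xist, the noncoding RNA of the inactive X chromosome, with 7830 and 6023 reads of Y-linked genes, whereas both libraries numbered 2 held 53065 and 44150 reads of Xist and 1 Y-linked read each. The mitochondrially encoded share of counts also followed the number, at 2.29% and 2.48% in libraries 1 and 1.51% and 1.53% in libraries 2. Each number was therefore present once in each group, and the libraries were compared within pairs (imiquimod 1 with control 1, imiquimod 2 with control 2). The labels do not say whether libraries came from separate mice or pools, so p values measure the spread between libraries, which may in part be technical.

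Few genes passed the test at day 30. Of 17299 genes tested, 5 had an adjusted p under 0.05 (0.0289%), by edgeR's quasi-likelihood test with the pair as a block and Benjamini-Hochberg adjustment over all genes. Aim2, Casp1, Runx1 and Tmprss11g rose (0.0231% of genes), and Fdft1 fell (0.00578%). In all 5 the imiquimod libraries lay on the same side of both control libraries. An unadjusted p under 0.05 was reached by 1552 genes (8.97%), of which 640 were higher (3.7%) and 912 lower (5.27%). The groups did not overlap for 2173 genes in the higher direction (12.6%) and for 2492 in the lower (14.4%). The 2 pairs had little in common over all genes: the within-pair differences correlated at 0.07 across genes, which share libraries and are not independent replicates, and they had the same sign for 53.5% of genes. The differences spread more widely in pair 1 (SD 0.823 on the log2 scale) than in pair 2 (SD 0.560).

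**Figure D1:**
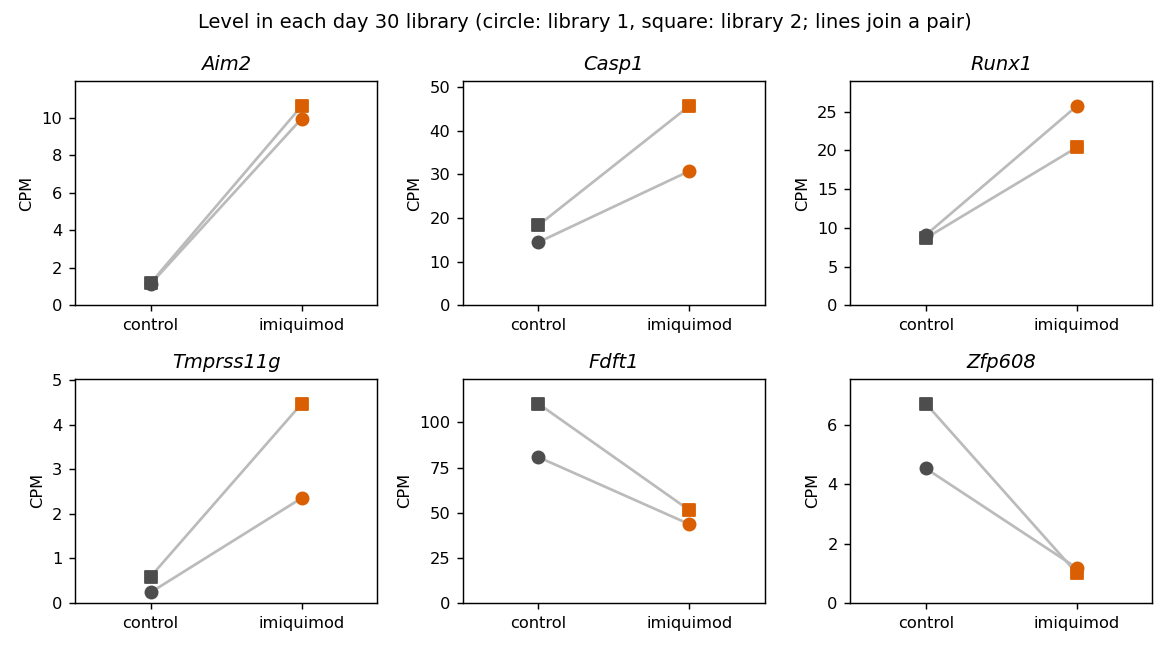
CPM on a linear axis in each of the 4 day 30 libraries, for the 5 genes past the adjusted test and for Zfp608, which passed by edgeR without the pair block but not with it. Circles are libraries 1, squares are libraries 2, and grey lines join the libraries of a pair; all lines of a panel slope the same way.

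Aim2 lies at chr1:173349547-173466040 (mm10, as are the other coordinates). Its level was 1.14 and 1.18 CPM in control libraries 1 and 2 and 9.96 and 10.6 CPM in imiquimod libraries 1 and 2. The 2 groups were thus far apart and each was tight, with 24 and 40 reads behind the control values and 220 and 309 behind the imiquimod values. The log2 change was 3.15 ± 0.24 (SE, adjusted p = 0.00777 by edgeR), with 3.08 in pair 1 and 3.12 in pair 2. The other 6 AIM2-like receptor genes, of the Ifi200 family that senses nucleic acid, were tested, and none of them passed. Their levels were at most 1.04 CPM in any day 30 library. Ifi203 was at 0.236 and 0.059 CPM in control and at 1.04 and 0.206 CPM after imiquimod (2.01 ± 0.79, unadjusted p = 0.0312, adjusted p = 0.525). Members of this family are near-identical neighbours, so the division of reads among them is uncertain. The unadjusted test was passed by 2 of the 7, both higher, against 3.7% of all genes in that direction.

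Casp1 (chr9:5298517-5307281) stood at 14.4 and 18.3 CPM in control and at 30.7 and 45.7 CPM after imiquimod. Both imiquimod libraries exceeded both controls, and the log2 change was 1.21 ± 0.14 (adjusted p = 0.0367 by edgeR). Casp1 was the only one of 18 tested genes of inflammasomes, inflammatory caspases and gasdermins that passed by edgeR. Its neighbours in function Casp12 and Casp4 had positive values: Casp12 was at 4.4 and 1.45 CPM in control and 7.47 and 8.33 CPM after imiquimod (1.61 ± 0.39, adjusted p = 0.441 by edgeR). By DESeq2 with the block Casp12 passed as well, and without the block it did not. Casp4, which responds to bacterial lipopolysaccharide in the cytosol, was at 46.7 and 67.2 against 64.5 and 81.2 CPM (0.37 ± 0.11, adjusted p = 0.483), with overlapping groups. The adaptor Pycard, which links sensor to caspase, was at 91.9 and 160 CPM in control and 100 and 106 CPM after imiquimod (-0.24 ± 0.16, adjusted p = 0.687). The list as a whole had a median log2 change of -0.03, against -0.02 over all genes. At an unadjusted p under 0.05, 3 of 18 genes were higher and 0 lower, against 3.7% and 5.27% of all genes. Among 20 tested ligands and receptors of the interleukin-1 family none passed by edgeR, and only Il18 passed by DESeq2 with the block. Il18, a substrate of caspase-1, was at 0.804 and 7.26 CPM in control and 4.62 and 14.7 CPM after imiquimod (1.56 ± 0.41, adjusted p = 0.451): it was higher within both pairs, and the pairs differed by more than the groups. Its inhibitor Il18bp was at 1.32 and 1.53 against 2.26 and 2.13 CPM (0.61 ± 0.24, adjusted p = 0.531).

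Runx1 (chr16:92601466-92826074), a transcription factor of hair follicle stem cells and of blood formation, was at 9.08 and 8.68 CPM in control and at 25.8 and 20.4 CPM after imiquimod. The groups were well separated, with a log2 change of 1.37 ± 0.12 (adjusted p = 0.011 by edgeR). No other gene among 9 tested Runx factors and cofactors passed. Runx2 had 2.70 and 1.12 against 3.62 and 1.76 CPM (0.53 ± 0.31, adjusted p = 0.651). Cbfb, the subunit that stabilizes Runx proteins on DNA, had 122 and 104 against 111 and 99.5 CPM (-0.10 ± 0.08, adjusted p = 0.749). Tmprss11g (chr5:86485877-86518600), which encodes a membrane-bound serine protease, was at 0.236 and 0.590 CPM in control and at 2.35 and 4.47 CPM after imiquimod. It was low in all 4 libraries, yet its log2 change of 3.02 ± 0.34 passed (adjusted p = 0.0367 by edgeR). It was the only one of 21 tested genes of the TMPRSS11 cluster and other epidermal surface proteases and their inhibitors to do so. In that list 2 genes were higher and 3 lower at an unadjusted p under 0.05, against 3.7% and 5.27% of all genes. The median was -0.04.

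By edgeR, none of these calls held without 1 of the 4 libraries when the block was kept, and 4 of the 5 did not hold without the block. Without any 1 of the 4 libraries none of the 5 genes passed with the block, at adjusted p values of 0.15 to 0.375 for Aim2, 0.171 to 0.375 for Runx1, 0.171 to 0.436 for Casp1 and for Fdft1 and 0.192 to 0.436 for Tmprss11g. Without the pair block Aim2 kept its call by edgeR (adjusted p = 0.00709), also with imiquimod library 1 left out (0.0379), and the others did not, at 0.984 for Runx1, 0.692 for Casp1, 0.139 for Tmprss11g and 0.626 for Fdft1. By DESeq2 all 5 passed with and without the block. By edgeR without the block 2 genes passed (0.0116%), Aim2 and Zfp608, a zinc finger gene (adjusted p = 0.0266, and 0.0688 with the block). Zfp608 also passed by DESeq2, with the block and without it. Its level was 4.54 and 6.73 CPM in control and 1.18 and 0.998 CPM after imiquimod, a log2 change of -2.37 ± 0.30.

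The widest pattern at day 30 was in cholesterol synthesis. All 20 enzymes listed for the mevalonate and sterol branches had a negative log2 change, with a median of -0.63 against -0.02 over all genes. Fdft1 fell, and 13 of the 20 were lower at an unadjusted p under 0.05, against 5.27% of all genes. For 16 of the 20 both pairs had a negative difference, against 29.9% of all genes, and the median was -0.49 in pair 1 and -0.78 in pair 2. In 11 of the 20 both imiquimod libraries lay below both controls, against 14.4% of all genes. That the list is lower was already known when it was drawn up, so its counts are a description. The list was not tested as a set, and its members share libraries and regulators, so they are not independent of each other.

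The promoters of these genes are shown because they are classically bound by SREBP-2, the transcription factor that senses cholesterol, together with NF-Y, which binds CCAAT boxes. Each line gives the 150 bases before a RefSeq start of a gene (GRCm38.p6, the assembly of mm10), 5′ to 3′ on the gene's strand. For Lss the span of the gene begins at chr10:76531565, so the end of its line lies inside that span. Capitals mark CCAAT on either strand (ATTGG on the other) and, in Hmgcs1 alone, a sterol regulatory element written TCACNCCAC. The lines are the 5 enzymes with the lowest p values among those with a promoter entry, and Hmgcs1.
Acat2, chr17:12960726-12960875, minus strand: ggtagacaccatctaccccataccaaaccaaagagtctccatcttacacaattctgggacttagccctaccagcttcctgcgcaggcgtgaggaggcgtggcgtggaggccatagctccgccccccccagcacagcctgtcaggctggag
Cyp51, chr5:4104698-4104847, minus strand: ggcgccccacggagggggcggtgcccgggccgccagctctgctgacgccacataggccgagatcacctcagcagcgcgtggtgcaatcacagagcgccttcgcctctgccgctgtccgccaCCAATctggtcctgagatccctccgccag
Lss, chr10:76531455-76531604, plus strand: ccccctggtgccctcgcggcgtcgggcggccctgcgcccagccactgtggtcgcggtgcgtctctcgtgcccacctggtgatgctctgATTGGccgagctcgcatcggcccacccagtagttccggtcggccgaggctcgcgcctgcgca
Mvd, chr8:122443423-122443572, minus strand: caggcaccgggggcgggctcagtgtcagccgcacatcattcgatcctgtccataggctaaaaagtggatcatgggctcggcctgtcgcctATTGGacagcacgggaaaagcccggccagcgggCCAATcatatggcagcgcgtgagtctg
Msmo1, chr8:64733579-64733728, minus strand: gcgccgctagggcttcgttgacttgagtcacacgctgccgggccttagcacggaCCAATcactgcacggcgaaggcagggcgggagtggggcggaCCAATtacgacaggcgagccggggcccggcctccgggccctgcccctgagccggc
Hmgcs1, chr13:119690201-119690350, plus strand: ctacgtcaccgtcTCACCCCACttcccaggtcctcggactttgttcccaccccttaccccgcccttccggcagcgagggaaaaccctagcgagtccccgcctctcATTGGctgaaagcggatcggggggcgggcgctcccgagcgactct

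Of the 20 enzymes 16 had a promoter entry. In the 250 bases before the start, CCAAT on either strand was found in 15 of these 16, all but Acat2, against 39.5% of the 11507 genes with an entry. The letters TCACNCCAC, on either strand, were found in 1 of the 16, against 1.34% of genes, and no letters are shared between the 2 motifs at a match in the lines above. These are matches of letters, not measured binding. In the same window of Aim2, Casp1, Runx1 and Tmprss11g no match was found to TGANTCA (AP-1, in 6.2% of genes) or TTCNNNGAA (STAT, 7.16%), on either strand, which says only that these letters are not in that window. For Aim2 the window was chr1:173420354-173420603, which lies inside the span given for the gene above. The bases before that span were not searched.

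**Figure D2:**
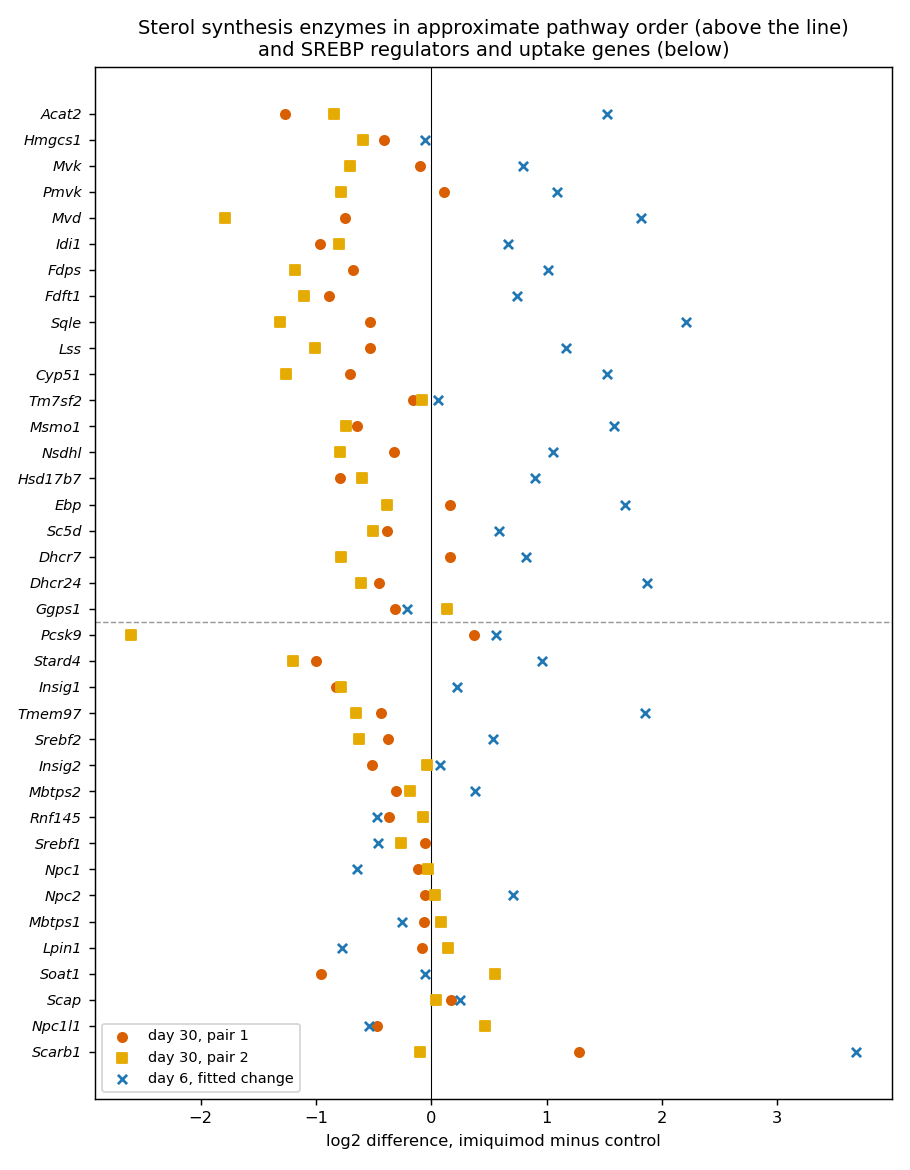
Log2 difference between imiquimod and control for each sterol synthesis enzyme and each SREBP regulator or uptake gene; circles and squares are the differences in CPM within the 2 day 30 pairs, and crosses are the fitted change at day 6. For the enzymes, nearly all circles and squares lie left of 0 (16 of 20 in both pairs), while 17 of the crosses mark genes that rose at day 6.

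Negative values ran along most of the pathway. At its start Acat2, which makes acetoacetyl-CoA, was at 18.7 and 22.4 CPM in control and 7.74 and 12.4 CPM after imiquimod (-1.05 ± 0.15, adjusted p = 0.114 by edgeR). Hmgcs1, the next enzyme, was at 571 and 599 against 429 and 397 CPM (-0.50 ± 0.11, adjusted p = 0.367). The values of Acat2 and Hmgcs1 did not overlap between the groups. Mvd, which makes isopentenyl diphosphate, was at 8.94 and 38.9 against 5.30 and 11.2 CPM (-1.34 ± 0.23, adjusted p = 0.236), the most negative value of the list. Idi1, which isomerizes that product, was at 6.86 and 8.88 against 3.49 and 5.09 CPM (-0.88 ± 0.21, adjusted p = 0.435).

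Fdft1 (chr14:63145150-63181687), squalene synthase and the step that commits the pathway to sterols, was at 80.8 and 110 CPM in control and 43.6 and 51.4 CPM after imiquimod. Both imiquimod libraries were below both controls, with a log2 change of -0.998 ± 0.11 (adjusted p = 0.0367 by edgeR). Sqle, squalene epoxidase, was at 78.6 and 191 against 54.4 and 76.9 CPM (-0.93 ± 0.21, adjusted p = 0.422). Lss, which closes the sterol rings, was at 43.5 and 73.2 against 30.1 and 36.4 CPM (-0.78 ± 0.13, adjusted p = 0.214). Cyp51, which demethylates lanosterol, was at 178 and 263 against 109 and 110 CPM (-0.98 ± 0.15, adjusted p = 0.145). Sqle, Lss and Cyp51 had separate groups, and in each the gap was wider in pair 2. Msmo1, a sterol methyl oxidase, was at 130 and 175 against 83.2 and 105 CPM (-0.69 ± 0.13, adjusted p = 0.297), also with separate groups. The last steps had smaller values: Dhcr7 was at 73.4 and 148 against 81.9 and 86.3 CPM (-0.32 ± 0.18), Ebp at 57.1 and 61.7 against 64.0 and 47.1 CPM (-0.11 ± 0.14). Tm7sf2 was at -0.12 ± 0.19, and Ggps1, which makes the prenyl donor of a side branch, was nearest to 0 at -0.08 ± 0.14. By DESeq2 with the block, which called more genes, 81 of 14081 genes passed, 45 of them lower (0.32%), and 9 of the 20 enzymes were among these: Acat2, Cyp51, Fdft1, Fdps, Hmgcs1, Lss, Msmo1, Mvd and Sqle. By DESeq2 without the block 3 of the 20 passed (Acat2, Cyp51 and Fdft1).

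Among 17 genes that regulate SREBP or take up cholesterol, none passed by edgeR, and the median was -0.16. By DESeq2 with the block Srebf2 and Stard4 passed, both lower, against 0.32% of all genes, and neither passed without it. At an unadjusted p under 0.05, 4 were lower and 0 higher, against 5.27% and 3.7% of all genes. Stard4, which carries sterol to the endoplasmic reticulum, had the lowest p: it was at 45.1 and 110 CPM in control and 22.5 and 48.0 CPM after imiquimod (-1.10 ± 0.15, adjusted p = 0.0961 by edgeR). For Stard4 the groups overlapped through pair 2. Srebf2, the gene of SREBP-2 itself, was at 320 and 385 against 246 and 249 CPM (-0.50 ± 0.11, adjusted p = 0.353). Insig1, which retains SREBP in the endoplasmic reticulum, was at 74.0 and 78.7 against 41.6 and 45.8 CPM (-0.81 ± 0.22, adjusted p = 0.47), and Tmem97 at 9.27 and 11.5 against 6.84 and 7.30 CPM (-0.55 ± 0.13, adjusted p = 0.422).

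Fatty acid and ceramide synthesis had a smaller shift. Of 29 genes none passed by edgeR, and the median was -0.21. By DESeq2 only Scd2 passed, with the block and without it. At an unadjusted p under 0.05, 9 were lower and 0 higher, against 5.27% and 3.7% of all genes. A negative difference in both pairs was seen for 20 of the 29, against 29.9% of all genes. Scd1, the stearoyl-CoA desaturase, was at 199 and 440 CPM in control and 144 and 317 CPM after imiquimod (-0.47 ± 0.12, adjusted p = 0.442). Its paralog Scd2 was at 46.6 and 154 against 21.8 and 21.4 CPM (-1.99 ± 0.48, adjusted p = 0.47), with the larger gap in pair 2. The opposite direction was seen for most genes of a list of targets of LXR, the nuclear receptor of oxysterols, and of oxysterol metabolism. Of 15 tested, none passed the adjusted test by edgeR, and the median was 0.16. The change was positive for 11 and negative for 4, the lowest at -1.06. Within both pairs 9 were higher and 2 lower, against 23.6% and 29.9% of all genes. At an unadjusted p under 0.05, 4 were higher and 0 lower, against 3.7% and 5.27% of all genes. Abca1, which exports cholesterol from the cell, was at 55.9 and 58.1 CPM in control and 75.8 and 109 CPM after imiquimod (0.68 ± 0.13, adjusted p = 0.297). Pltp was at 4.59 and 4.13 against 7.47 and 6.19 CPM (0.64 ± 0.22, adjusted p = 0.493), and Mylip, a ubiquitin ligase, at 42.9 and 36.9 against 55.9 and 44.3 CPM (0.32 ± 0.13, adjusted p = 0.54). In all 3 both imiquimod libraries exceeded both controls.

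Beyond these pathways, the genes with the lowest p values below the adjusted threshold and with separate groups were H2-Ab1, Fam71a, Adamtsl1, Trp73, Spry2, Abca1, Foxo1, Pdk4, Lgals9, Irx1, Prag1 and Fjx1 on the higher side. H2-Ab1, the beta chain of an MHC class II molecule, was at 3.36 and 1.56 CPM in control and 11.1 and 4.78 CPM after imiquimod (1.67 ± 0.23, adjusted p = 0.0961 by edgeR). Its partner H2-Aa was at 4.35 and 1.83 against 9.14 and 5.30 CPM (1.29 ± 0.34, adjusted p = 0.455 by edgeR), and passed by DESeq2 with the block but not without it. The invariant chain Cd74 was at 13.9 and 3.45 against 17.6 and 7.78 CPM (0.72 ± 0.32, adjusted p = 0.556), so libraries 1 were the higher ones in each group. Of 11 tested MHC class II genes 2 were higher at an unadjusted p under 0.05 and 8 were higher within both pairs, against 3.7% and 23.6% of all genes, with a median of 0.30. Langerhans cells express these genes too, and their part was not tested; their marker Cd207 was at 0.520 and 0.266 CPM in control and 1.36 and 0.310 CPM after imiquimod. The summed level of the 13 Langerhans and dendritic markers was 199 and 149 CPM in control and 179 and 145 CPM after imiquimod, and most of it was Epcam. Of 7 tested, 5 had a positive and 1 a negative change, with a median of 0.89, and none passed the adjusted test. At an unadjusted p under 0.05, 2 were higher and 0 lower, against 3.7% and 5.27% of all genes. These were Cd1d1 (2.05 ± 0.70) and Mfge8 (1.08 ± 0.39), both higher within both pairs. Flt3, Clec9a and Clec10a were at 0 in all 4 libraries.

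Fam71a was at 4.45 and 3.63 CPM in control and 13.1 and 19.9 CPM after imiquimod (2.02 ± 0.29, adjusted p = 0.114). Trp73, a relative of p53, was at 18.0 and 22.5 against 32.4 and 37.5 CPM (0.79 ± 0.15, adjusted p = 0.297), and Spry2, a feedback inhibitor of receptor tyrosine kinases, at 19.8 and 14.3 against 31.1 and 23.8 CPM (0.69 ± 0.13, adjusted p = 0.297). Foxo1, a transcription factor held back by insulin signalling, was at 30.7 and 38.0 against 54.4 and 50.8 CPM (0.62 ± 0.12, adjusted p = 0.327). These 4 genes had separate groups. The differences in pairs 1 and 2 were close for Trp73 (0.85 and 0.73) and Spry2 (0.65 and 0.73) and farther apart for Fam71a (1.55 and 2.44) and Foxo1 (0.82 and 0.42). Pdk4, which brakes pyruvate dehydrogenase, was at 4.63 and 1.74 against 18.7 and 5.40 CPM (1.83 ± 0.37, adjusted p = 0.353). The remaining 5, Adamtsl1, Lgals9 (galectin-9), Irx1, Prag1 and Fjx1, had log2 changes between 0.69 and 1.20.

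On the lower side the same rule gave Orai1, Calm5, Acat2, Cyp51, Lss, H2-M2, Sptssa, Gpc3, Skint1, Dusp22, Msmo1 and Pof1b, of which 4 are sterol enzymes. Orai1, the pore of the store-operated calcium channel, was at 49.1 and 69.4 CPM in control and 23.7 and 43.6 CPM after imiquimod (-0.86 ± 0.12, adjusted p = 0.0961 by edgeR). Calm5, a calmodulin-like gene of the epidermis, was at 128 and 209 against 73.1 and 115 CPM (-0.84 ± 0.12, adjusted p = 0.109). H2-M2, a nonclassical MHC class I gene, was at 18.9 and 28.4 against 7.42 and 8.47 CPM (-1.55 ± 0.26, adjusted p = 0.228). For H2-M2 the imiquimod values were close together and well under both controls, while for Orai1 and Calm5 the gap between groups was narrow beside the gap between pairs. Gpc3, the proteoglycan glypican-3, was at 8.42 and 13.8 against 3.12 and 1.27 CPM (-2.40 ± 0.41, adjusted p = 0.236). Sptssa, a small subunit of the enzyme that begins ceramide synthesis, was at 268 and 383 against 180 and 225 CPM (-0.67 ± 0.11, adjusted p = 0.236). All 30 genes named by these rules, the 5 past the test and Zfp608 included, passed by DESeq2 with the block, 16 higher and 14 lower, and 6 higher and 5 lower passed by DESeq2 without it. All 30 were chosen for low p values in these same libraries.

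**Figure D3:**
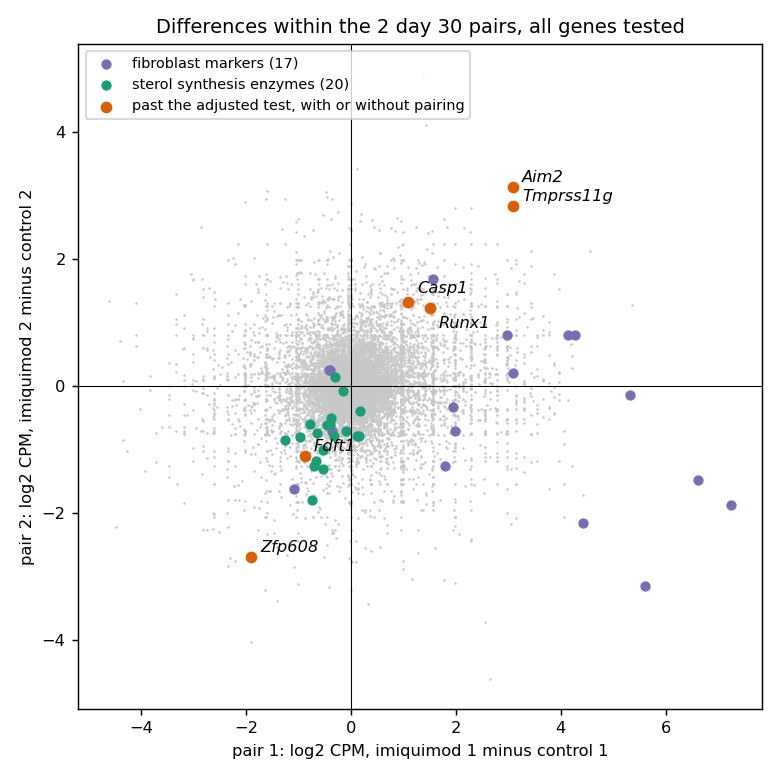
Log2 CPM difference between imiquimod and control within pair 1 (horizontal) and within pair 2 (vertical) for every gene tested (grey). The genes past the adjusted test and Zfp608 (orange) and most sterol enzymes (green) lie in the same-sign quadrants, whereas many of the 17 tested fibroblast markers (purple) are far right in pair 1 and not in pair 2.

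Genes of differentiating keratinocytes had lower values, mostly in pair 2. Of 43 suprabasal genes tested none passed, and the median was -0.34, with -0.01 in pair 1 and -0.52 in pair 2. At an unadjusted p under 0.05, 7 were lower and 0 higher, against 5.27% and 3.7% of all genes. Krt78 was at 39.3 and 205 CPM in control and 33.1 and 81.9 CPM after imiquimod (-0.81 ± 0.23, adjusted p = 0.483 by edgeR). Dsg1b, a desmosomal cadherin, was at 67.2 and 141 against 48.3 and 73.7 CPM (-0.71 ± 0.24, adjusted p = 0.5), and Sptlc3, of ceramide synthesis, at 86.7 and 142 against 78.9 and 78.4 CPM (-0.50 ± 0.17, adjusted p = 0.493). In all 3 control library 2 was the highest of the 4. Krt10 showed the same, at 9029 and 17793 CPM in control and 8226 and 9023 CPM after imiquimod. In bulk RNA, fewer cells of a type and less RNA per cell cannot be told apart. Several sterol genes were also highest in control library 2, for example Sqle, Mvd and Stard4 of the uptake list, but Ebp was not. The median of the sterol enzymes was -0.49 in pair 1 and -0.78 in pair 2. The part of differentiating cells in the sterol values was not tested.

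The Skint family, whose founding member Skint1 shapes the T cells of the epidermis, had a median of -0.37 over 11 genes. None passed the adjusted test by edgeR, and Skint1 and Skint5 passed by DESeq2 with the block but not without it. At an unadjusted p under 0.05, 6 of the 11 were lower and 0 higher, against 5.27% and 3.7% of all genes. Skint1 was at 133 and 131 CPM in control and 80.3 and 95.1 CPM after imiquimod (-0.60 ± 0.11, adjusted p = 0.266 by edgeR). Skint5 was at 39.1 and 166 against 25.1 and 92.3 CPM (-0.75 ± 0.16, adjusted p = 0.353), and Skint11 at 38.1 and 48.2 against 17.7 and 32.8 CPM (-0.82 ± 0.22, adjusted p = 0.468). Skint1 and Skint11 had separate groups and Skint5 did not. The family is a cluster of close copies, so reads may be divided among them in error.

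Of 28 tested genes of stem cell identity and of the hair follicle none passed. At an unadjusted p under 0.05, 6 were higher and 0 lower, against 3.7% and 5.27% of all genes. Within both pairs 16 were higher and 6 lower, against 23.6% and 29.9% of all genes, and the median was 0.17. Sox9, a transcription factor of follicle stem cells, was at 50.5 and 31.9 CPM in control and 78.5 and 46.1 CPM after imiquimod (0.58 ± 0.16, adjusted p = 0.468 by edgeR). Foxc1 was at 4.21 and 6.14 against 12.4 and 9.43 CPM (1.06 ± 0.34, adjusted p = 0.483), and Tbx1 at 0.473 and 0.118 against 1.36 and 2.79 CPM (2.95 ± 1.14, adjusted p = 0.539). Of 10 tested markers of bulge and outer root sheath cells none passed, 6 were higher and 3 lower within both pairs, and the median was 0.48. The markers lower in both pairs were Postn (-0.63), Lgr5 (-0.60) and Nfatc1 (-0.31). The summed level of the list was 8787 and 6670 CPM in control and 11429 and 9841 CPM after imiquimod, with none at 0. Krt15, which is also basal, made up most of it, at 7840 and 5098 against 10288 and 8732 CPM (0.58 ± 0.22, adjusted p = 0.515). Cd34, which the sort excluded, was at 0.520 and 0.207 against 1.95 and 0.585 CPM (1.73 ± 0.73, adjusted p = 0.547). The part of follicle cells in these values was not tested.

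**Figure D4:**
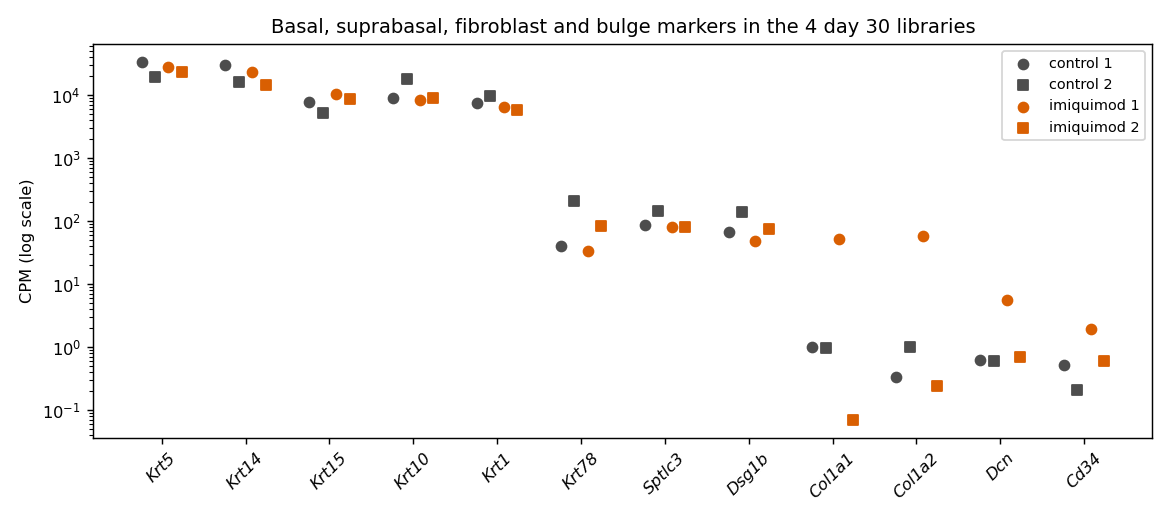
CPM (log axis) of basal, suprabasal, fibroblast and bulge markers in each of the 4 day 30 libraries; grey is control, orange imiquimod, circles libraries 1 and squares libraries 2. Imiquimod library 1 alone is high in Col1a1 and Col1a2, and control library 2 is the highest in Krt10, Krt78, Sptlc3 and Dsg1b.

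Imiquimod library 1 stood apart in the type I collagen genes of fibroblasts. Col1a1 was at 0.993 and 0.974 CPM in control, 50.6 CPM in imiquimod library 1 and 0.0688 CPM in imiquimod library 2, and Col1a2 at 0.331 and 1.00, 57.5 and 0.241 CPM. Col6a1, another collagen of the list, went the other way, at 45.02 and 42.8 CPM in control and 21.1 and 13.9 CPM after imiquimod (-1.36 ± 0.34, adjusted p = 0.451 by edgeR), with separate groups. The 17 tested fibroblast markers had a median log2 change of 1.91, which was 2.97 in pair 1 and -0.34 in pair 2, and none passed. The summed level of the 18 markers was 506 and 243 CPM in control and 518 and 247 CPM after imiquimod, most of it Thy1 and Sparc, and 7, 2, 1 and 3 of them were at 0 in these libraries. The differences of the 5 genes past the test, in pair 1 and then pair 2, were 3.08 and 3.12 for Aim2, 1.50 and 1.23 for Runx1, 1.09 and 1.32 for Casp1, 3.09 and 2.83 for Tmprss11g and -0.89 and -1.10 for Fdft1. The part of fibroblast RNA in these values was not tested.

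Several of the lists that moved at day 6 had a median near 0 at day 30, unlike the sterol, Skint and suprabasal lists above. Among 24 stress keratins and envelope proteins 23 were higher at day 6 (median 5.73), against 28.5% of all genes, while at day 30 none passed and the median was -0.06, with 0.24 in pair 1 and -0.55 in pair 2. Medians at day 6 and then day 30 were likewise high and near 0 for 22 antimicrobial and alarmin genes (2.50 and -0.09), 38 subunits of oxidative phosphorylation (1.03 and -0.05), 30 genes of DNA replication (1.14 and -0.05) and 30 genes of mitosis (1.02 and -0.05), none of which held a gene past the test at day 30. Type I interferon response genes had medians of -1.04 and 0.01. For NF-κB and TNF genes the day 30 median was -0.23. At an unadjusted p under 0.05, 4 of 24 were lower and 0 higher, against 5.27% and 3.7% of all genes. Among the 4, Birc3 was at 75.6 and 96.9 against 60.5 and 78.1 CPM (-0.32 ± 0.09, adjusted p = 0.483). For AP-1 and immediate early genes, which have been linked to inflammatory memory, the day 30 median was 0.02. At an unadjusted p under 0.05, where 3.7% of all genes were higher, 3 of the 28 were higher. Of these, Jund was at 572 and 549 against 726 and 718 CPM (0.36 ± 0.10, adjusted p = 0.468) and Fosl2 at 410 and 391 against 471 and 594 CPM (0.40 ± 0.11, adjusted p = 0.47).

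The 30 named genes were then read in the day 6 and wound libraries. These libraries do not enter the day 30 log2 changes, but they share the fit that set the spread behind the day 30 p values. Because low p values picked the 30 genes, the counts of genes passing at the other times are not independent of that choice. At day 6, when 48.9% of all genes passed, 25 of the 30 passed and 15 of these had the sign of day 30. In wounds of previously treated against control skin, where 0.162% of genes passed at 6 h and 0.116% at 12 h, 4 and 6 of the 30 passed, all with the sign of day 30. They were Aim2, Casp1, Prag1 and Zfp608 at 6 h, and Aim2, Casp1, H2-Ab1, Calm5, H2-M2 and Zfp608 at 12 h. Without the block 3 passed at 6 h (Aim2, Zfp608 and Gpc3) and 0 at 12 h. By edgeR without the block, Casp1 (adjusted p = 0.126) and Prag1 (0.211) did not pass at 6 h.

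Aim2 was at 2.21 and 2.25 CPM in day 6 control and 19.3 and 32.8 CPM in day 6 imiquimod, at 1.37 and 1.16 against 19.1 and 11.9 CPM at 6 h, and at 2.46 and 1.79 against 11.7 and 8.20 CPM at 12 h. The groups were separate at every time, with log2 changes of 3.48 ± 0.22 at day 6 (adjusted p = 1.26e-05), 3.61 ± 0.23 at 6 h (0.00057) and 2.22 ± 0.21 at 12 h (0.00944) by edgeR. The difference between day 30 and day 6 was -0.33 ± 0.33 (adjusted p = 0.47). Casp1 had log2 changes of 2.08 ± 0.14, 1.53 ± 0.14 and 1.40 ± 0.13 at day 6, 6 h and 12 h, and its day 30 change was smaller than that at day 6 by a test of the difference (-0.87 ± 0.19, adjusted p = 0.00757). Zfp608 was lower after imiquimod at every time (-3.21 ± 0.30, -2.58 ± 0.32 and -2.39 ± 0.31 at day 6, 6 h and 12 h, adjusted p = 5.73e-05, 0.0186 and 0.0385). Runx1 did not pass in wounds, at 0.34 (adjusted p = 0.236) and 0.45 (adjusted p = 0.355), where its control level was higher, at 27.9 to 41.0 CPM against 8.68 and 9.08 CPM in unwounded control. Tmprss11g likewise stood at 18.6 to 33.5 CPM in control wounds, and its changes there were 0.78 (adjusted p = 0.153) and 0.85 (adjusted p = 0.335).

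**Figure D5:**
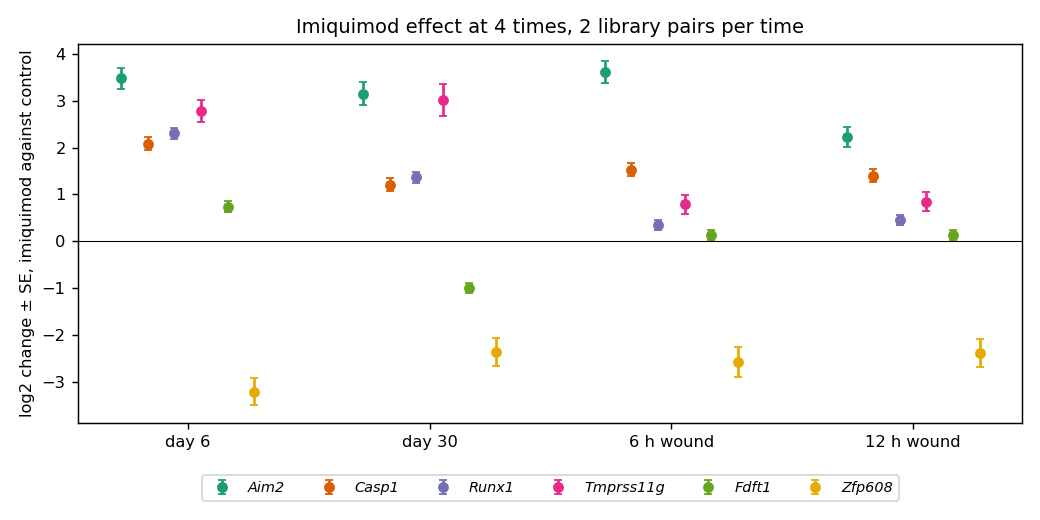
Fitted log2 change between imiquimod and control, with its SE, at day 6, day 30 and 6 h and 12 h after wounding, for the 5 genes past the test at day 30 and Zfp608. Aim2 and Casp1 are above 0 and Zfp608 is below 0 at every time, while Fdft1 is 0.74 at day 6 and -0.998 at day 30.

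Sterol genes had opposite signs at day 6 and day 30. At day 6, 17 of the 20 enzymes were higher, against 28.5% of all genes, with a median of 1.03. The day 30 effect was more negative than the day 6 effect for 17 of the 20, against 20.4% of all genes (34.3% in either direction). Fdft1 was at 53.1 and 54.2 CPM in control and 99.1 and 81.1 CPM after imiquimod at day 6, a change of 0.74 ± 0.11 (adjusted p = 0.000586 by edgeR), and the difference of the 2 effects was -1.74 ± 0.15 (adjusted p = 0.00018). Its day 30 imiquimod values of 43.6 and 51.4 CPM were thus below the day 6 controls as well as the day 30 controls. The same was true of Acat2 and Hmgcs1, but not of the whole pathway. Cyp51 stood at 109 and 110 CPM in day 30 imiquimod, above its day 6 controls of 72.4 and 57.9 CPM. Msmo1 and Sqle were likewise above their day 6 controls, and Lss overlapped with them. In wounds Fdft1 was at 30.6 and 46.0 against 35.8 and 47.0 CPM at 6 h and at 121 and 103 against 130 and 115 CPM at 12 h, with a change of 0.13 at both times (adjusted p = 0.682 and 0.852). The median of the list was 0.46 at 6 h and 0.18 at 12 h. Day 6 and day 30 animals differ in age and in the time since the cream, so a difference in level between the 2 times cannot be told apart from either.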

How the data were processed

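RNA from sorted epidermal stem cells was sequenced after the Illumina TruSeq RNA preparation, per the labels' protocols. The deposited values are raw whole-number counts of reads per gene. Per the submitters' processing notes, the authors used STAR and the mm10 build. The aligner's version, the annotation and the strand setting were not given in the sources used here. Because the preparation is not labelled as stranded, overlapping and antisense genes cannot be told apart. Of 47729 gene IDs, 47224 matched a gene symbol, and the gene coordinates are those of RefSeq's table for GRCm38. Library totals over the 16 RNA-seq libraries were 23623968 to 76993427, and reads were not collapsed to molecules.

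Counts were tested in R 4.3.3 with edgeR 4.0.16 (robust quasi-likelihood F test, scaling by TMM, low counts filtered with filterByExpr) in 1 fit of all 16 libraries, with 8 group means and 4 terms for the replicate number within each time point, leaving 4 residual degrees of freedom. The fit was shared because 2 libraries a group leave too few residual degrees of freedom alone. The day 30 p values therefore rest on a spread estimated over all 4 times. An exact permutation of 2 libraries against 2, which was not run, could give a p of 0.333 at the smallest. Two-sided p values were adjusted over 17299 genes by Benjamini-Hochberg, with a threshold of 0.05. Levels are TMM-scaled CPM, and pair differences are of log2 CPM with a prior count of 2. SE values come from the F statistic. DESeq2 1.42.0 was an alternative. The test was tried on simulated data.

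The block was chosen for the main test in advance, because earlier results of these data had shown the day 30 libraries numbered 1 to stand apart from those numbered 2. The labels do not say what a shared number marks. The check made afterwards compared deviations of same-numbered libraries: with group means subtracted, log2 CPM correlated across genes at 0.452 at day 30, 0.220 at day 6, 0.539 at 6 h and 0.323 at 12 h, against -0.251 to 0.0733 between times. The common biological coefficient of variation was 14.2% with the block and 23.0% without it.

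Genes were named as all past the threshold and up to 12 per direction with the lowest unadjusted p below it. The latter needed a mean log2 CPM of at least 2, both pairs of the same sign and no overlap. Predicted genes and a list of 12 sex chromosome genes, such as Xist, were left out. Other genes of the X chromosome were kept, and Gpc3 and Pof1b lie on it. Also named were genes past the threshold in edgeR only without the block and the members of lists that held a called gene. Up to 3 members of the other lists described were named too. The comparison, the lists and the rules were chosen with earlier results of these data known. The lists hold the genes reported, and 2 further genes of sterol metabolism are not reported here.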

Additional observations from a re-analysis of the deposited data

Results flagged for a closer look

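For 16 of the 30 genes named at day 30, the effect of imiquimod differed between day 30 and day 6 by edgeR's test of the difference with the replicate block (adjusted p under 0.05), as it did for 34.3% of all genes. Values are the log2 effect at day 30 minus that at day 6, and for 11 of the 16 the 2 effects had opposite signs.

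The largest was Fam71a, at 8.16 (SE 0.50), whose effect was -6.14 at day 6 and 2.02 at day 30. Other genes with negative effects at day 6 and positive ones at day 30 were Adamtsl1 (3.99), Spry2 (2.21), Foxo1 (2.10) and Trp73 (0.86). The day 6 effect of Trp73 was -0.07 and did not pass (adjusted p = 0.716). Sterol enzymes had positive effects at day 6 and negative ones at day 30, with differences of -2.57 for Acat2, -2.51 for Cyp51, -2.27 for Msmo1, -1.94 for Lss and -1.74 for Fdft1. Sptssa of ceramide synthesis had -0.98. Abca1, which exports cholesterol, had 0.63, with a day 6 effect of 0.04 that did not pass (adjusted p = 0.818).

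Effects of the same sign that were smaller at day 30 were those of Casp1 (-0.87) and Runx1 (-0.94), higher at both times, and of Calm5 (3.16) and H2-M2 (2.57), lower at both. Without the replicate block 12 of the 30 genes differed, and Casp1 (adjusted p = 0.13), Runx1 (0.194), Trp73 (0.097) and Abca1 (0.142) were not among them.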

How the results depend on the processing

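The number of genes past the threshold at day 30 was 5, and again 5 with RLE scaling (the same 5). It was 2 without the replicate block (Aim2 and Zfp608), 2 with a filter of at least 1 CPM in every library of a group and 2 without robust shrinkage (Aim2 and Runx1 in both), and 40 with no filter on low counts. It was 81 by DESeq2 with the replicate block and 20 by DESeq2 without it, each including all 5. It was 0 by edgeR with only the 4 day 30 libraries, with the replicate block (1060 genes at an unadjusted p under 0.05) or without it (263). Leaving out 1 library of the 4 gave 0 in each case with the block, where the remaining pair is assumed to vary like those of other times (1128 to 1806 genes at an unadjusted p under 0.05), and 0 to 2 without it. The log2 changes of the 30 named genes kept their sign under each of the 17 alternatives. Without the replicate block the named genes past the threshold were 21 in place of 25 at day 6, 3 in place of 4 at 6 h (Aim2, Zfp608 and Gpc3) and 0 in place of 6 at 12 h. The median of the sterol enzymes was -0.62 with RLE scaling, -0.63 without the replicate block, -0.49 within pair 1 and -0.78 within pair 2. RLE scaling moved the median of all genes from -0.02 to -0.01. Tmprss11g and Aim2 rest on few reads in control (5 and 20, and 24 and 40), so their fold changes are the least precise of the genes past the test.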
